A study of Homo sapiens with 4 samples.

Results

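MYC and the genes around it that govern the G1 phase of the cell cycle were followed in HT-29 cells after silencing of APC. The 10 genes were chosen by their symbols and are MYC, its partner MAX, the D cyclins CCND1, CCND2 and CCND3, the cyclin D kinases CDK4 and CDK6, and the CDK inhibitors CDKN1A, CDKN1B and CDKN2B. All 10 were found by symbol and identifier among the 19729 genes listed. HT-29 is a human, microsatellite-stable colorectal cancer cell line with mutant BRAF and truncated APC. The cells carried a lentiviral, doxycycline (DOX)-inducible short hairpin RNA (shRNA) against APC (APC shRNA) or, as a control, a non-silencing shRNA (NonS). Cells of both kinds received 500 ng/ml DOX for 72 h, and polyadenylated RNA of biological duplicates was sequenced, giving 4 libraries, named here replicates I and II of each shRNA. Cells without DOX were not among the libraries, and the transduced cultures are compared as pools that carry a single shRNA each.

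MYC is a transcription factor that binds DNA together with MAX at a short motif, the E-box, and drives genes of growth and division. D cyclins activate CDK4 and CDK6, which phosphorylate the retinoblastoma protein and so release E2F factors for entry into S phase. CDKN2B (p15) blocks CDK4 and CDK6, while CDKN1A (p21) and CDKN1B (p27) act mainly on the kinase of cyclin E. APC belongs to the complex that marks β-catenin for degradation. MYC and CCND1 have long been described as targets of β-catenin and TCF factors in the colon, and MYC is known to hold CDKN1A and CDKN2B down.

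As MYC and MAX act at the E-box, the start sites of the 10 genes were searched for it. RefSeq windows (GRCh38.p14) of 250 bases before and 50 bases after a start site were at hand for 7 of the 10 genes, 11 windows in all, and not for MYC, CCND1 or CCND2. The E-box CACGTG, which reads the same on both strands, lay in 2 of the 11 windows, against 7.26% of all 35116 windows. The CDK4 window, chr12:57752261-57752560 on the minus strand, held it 3 times, starting at positions -216, -196 and -101 from the start site. Of all windows 33 (0.094%) held it 3 times or more. The CDK4 window is shown because it is the one with several E-boxes, and the capitals mark them.
CDK4: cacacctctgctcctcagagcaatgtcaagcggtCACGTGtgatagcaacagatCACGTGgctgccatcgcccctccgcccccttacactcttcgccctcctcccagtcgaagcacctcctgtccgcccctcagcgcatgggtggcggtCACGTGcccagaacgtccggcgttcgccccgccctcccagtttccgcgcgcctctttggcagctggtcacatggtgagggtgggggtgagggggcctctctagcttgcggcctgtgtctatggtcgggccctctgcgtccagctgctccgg
The other E-box lay 30 bases after a start site of CDK6. The TCF/LEF motif CTTTGAT, on either strand, lay in 0 of the 11 windows, against 2.62% of all windows. These matches describe letters only and say nothing of binding.

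Values were deposited as 1 whole number per gene and library. They behaved as scaled scores and not as read counts. In genes whose replicate values summed to between 10 and 39, the variance between replicates was 0.474 (NonS) and 0.345 (APC shRNA) times that of independent counts. Each library's values times transcript length in kb added up to between 980841 and 984873. Levels of different genes can therefore be set side by side roughly as per-length scores, the number of reads behind a value is unknown, and rounding alone moves a value by up to 0.5. The values of a library summed to between 398338 and 413595. APC itself had a value of 3 in 1 library, NonS replicate I, and 0 elsewhere, too low to check the silencing from these values. The paper reports that the shRNA lowered APC mRNA and protein in these cells, the protein by immunoblot. Of 8 Wnt response genes, AXIN2, RNF43 and ZNRF3, with means of 10 or more in both groups, rose by 2.92, 1.07 and 1.66 on the log2(value + 1) scale. The other 5 were at 4 or less with NonS and between 8 and 168 with APC shRNA, so that the 4 of them that passed the filter on the mean used below did so through the APC shRNA libraries alone. Of 11 markers of colorectal epithelium 8 were tested and 1 was called, LGALS4, which fell from 557 and 646 to 175 and 147. EPCAM lay between 183 and 224, CEACAM5 (not tested) was at 10 and 11 against 3 and 3, and CDX1 and CDX2, which specify intestinal epithelium, were at 4 or less. All 6 fibroblast and all 3 endothelial markers were at 0, as were 3 of 4 leukocyte markers, PTPRC among them. The fourth, the secreted enzyme LYZ, lay between 614 and 906.

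In NonS cells, MYC had the highest per-length score of the 10 genes, at 89 and 114, followed by CDK4 at 71 and 78, and CCND1 at 26 and 28. These levels did not overlap. CCND3 and CDKN1B came next, and their libraries overlapped, as did those of CDKN1A, MAX and CDK6 below them. CDKN2B was at 2 and 3, the latter also the lower value of CDK6, and CCND2 was listed at 0. After APC silencing CDK4 stood highest, and CCND1 (65 and 84) lay in the same range as MYC (65 and 85). The plot of values by library shows all 10 genes.

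**Figure D1:**
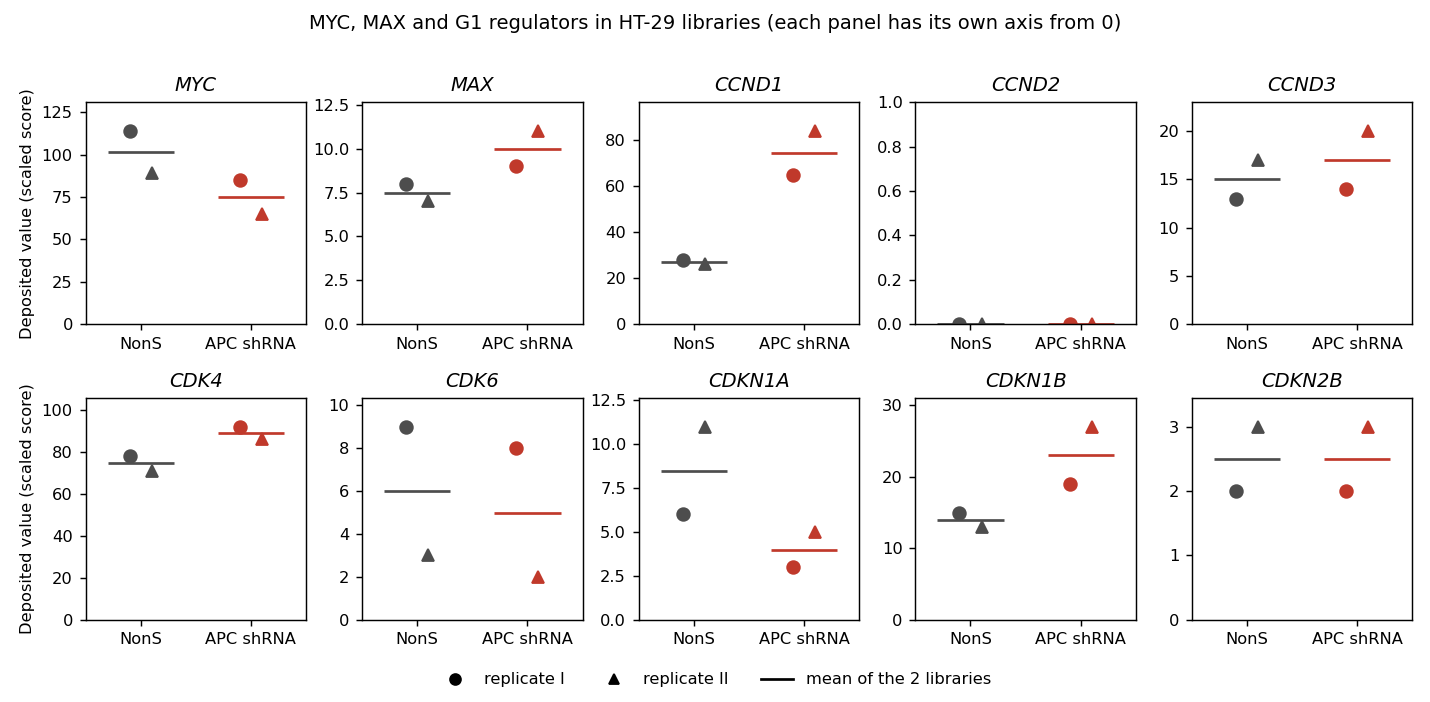
Deposited value (scaled score) of each gene in the 2 NonS and 2 APC shRNA libraries, with circles for replicate I, triangles for replicate II and a line at the mean of the 2 libraries. Each panel has its own axis from 0. CCND1 rises from 26 and 28 to 65 and 84, MYC lies lower in both APC shRNA libraries, and CCND2 is at 0 throughout.

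For the comparison of the 2 conditions, log2(value + 1) was tested with limma over the 5376 genes whose values averaged 10 or more, and a gene was called at a Benjamini-Hochberg adjusted p under 0.05. Low genes changed by more than this scale shows, because of the 1 that was added. Of these genes 8.04% were called, 4.33% higher and 3.7% lower after APC silencing, and the median difference was 0.03. The smallest adjusted p was 0.0423. At the study's own thresholds of 4-fold and an adjusted p of 0.01, 0 genes were therefore called, whatever their fold (1912 had an unadjusted p under 0.05, 19.8% of the genes tested higher and 15.8% lower). The paper reports genes in both directions at these thresholds, from DESeq2 on read counts, which is another test on other values. Of the 10 genes, 5 passed the filter on the mean, namely MYC, CCND1, CCND3, CDK4 and CDKN1B, all with a mean of 10 or more in both groups. CCND1 was called, 1 of these 5. The groups did not overlap in 6 of the 10 genes, with APC shRNA libraries above NonS libraries in 4 and below them in 2. Over all genes tested, 60.5% had groups that did not overlap (33% above and 27.5% below), and over all 12799 genes with a value above 0 it was 45%, so this count is near the background. For 1 gene alone, 2 against 2 libraries allow no p below 0.333 in an exact, two-sided permutation test. When any 1 library was left out, limma called 0 of the 5376 genes (1119 to 1330 had an unadjusted p under 0.05), so every call given here needs all 4 libraries. In bulk RNA, fewer cells that express a gene and less of its RNA per cell cannot be told apart.

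CCND1, the cyclin that links growth signals to CDK4 and CDK6, rose after APC silencing. It lies on chromosome 11 from 69641087 to 69654474 on the plus strand (GRCh38, as are all positions given). NonS replicate I had a value of 28 and replicate II of 26, while APC shRNA replicate I had 65 and replicate II 84. Both APC shRNA libraries were far above both NonS libraries. The means were 27 ± 1.41 (SD, n = 2) and 74.5 ± 13.4 (SD, n = 2), and their ratio was 2.76. The difference of CCND1 was 1.42 on the log2(value + 1) scale (standard error 0.16, 95% interval 0.93 to 1.91, adjusted p = 0.0465 from limma), and 75 of the genes tested, CCND1 included, rose by at least as much. The adjusted p was close to the threshold. A replicate block, given at the end, put it just above the threshold, and the block with GC content correction put it below. It was 0.0508 with genes of a mean of at least 8 and 0.0588 with every gene above 0. When any 1 library was dropped the difference stayed between 1.24 and 1.60, and CCND1, like every gene tested, was then not called. CCND1 shares 497 exonic bp with LTO1 on the opposite strand, and LTO1 was at 8, 9, 10 and 14 in the same order of libraries. The strand option of the authors' counting is not given in the sources used here, so reads of such partners cannot be told apart.

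The other D cyclins were lower than CCND1 in every library. CCND2, on chromosome 12 from 4273772 to 4305350, was listed at 0 in all 4 libraries. CCND3, the D cyclin prominent in blood cells, lies on chromosome 6 from 41934933 to 42050357 on the minus strand and had values of 13 and 17 with NonS against 14 and 20 with APC shRNA. Its groups overlapped, and replicate II was the higher one under both shRNAs. The difference of CCND3 on the log2(value + 1) scale was 0.16 (standard error 0.25, 95% interval -0.60 to 0.93, adjusted p = 0.661 from limma), which leaves both a fall and a rise of considerable size possible.

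Within the summed score of the D cyclins, CCND1 made up 68.3% (replicate I) and 60.5% (replicate II) with NonS, against 82.3% and 80.8% with APC shRNA. CCND3 made up the rest. Both shares of CCND1 were higher after APC silencing, by 17.1 percentage points on average (64.4% ± 5.53 against 81.5% ± 1.07, SD, n = 2 each, exact two-sided permutation p = 0.333, the smallest this design allows). The summed score of the family was 41 and 43 in NonS and 79 and 104 in APC shRNA libraries, as the plot of summed values shows.

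**Figure D2:**
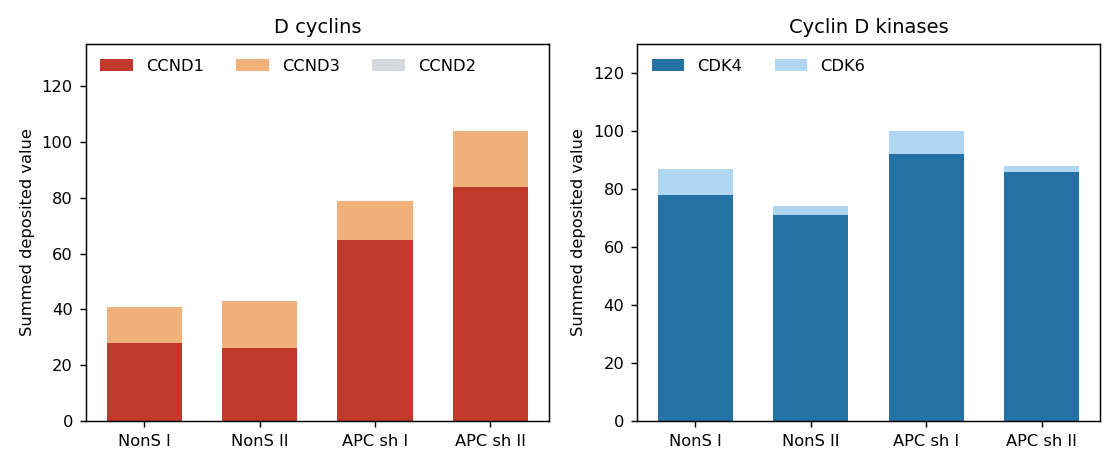
Summed deposited value of the D cyclins (left) and of CDK4 and CDK6 (right) in each of the 4 libraries, with each gene as a part of the bar and bars starting at 0. The D cyclin bars reach 41 and 43 in NonS and 79 and 104 in APC shRNA libraries and grow mainly by CCND1, CCND2 adds 0, and CDK4 makes up most of the kinase bars.

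CDK4 and CDK6 are the kinases that D cyclins activate. CDK4 lies on chromosome 12 from 57747727 to 57756013 on the minus strand, and its window with 3 E-boxes is printed above. NonS replicates I and II had 78 and 71, against 92 and 86 with APC shRNA. The libraries of the conditions did not overlap, but the gap was small beside the level. The difference of CDK4 was 0.25 on the log2(value + 1) scale (standard error 0.08, 95% interval 0.00 to 0.51, adjusted p = 0.143 from limma), and it was not called. CDK4 shares 1369 exonic bp, 43.2% of its own, with TSPAN31 on the opposite strand, which was at 19, 20, 23 and 27.

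CDK6, on chromosome 7 from 92604921 to 92836594 on the minus strand, stood at 9 and 3 with NonS and 8 and 2 with APC shRNA, under the filter. Here the replicates differed more than the conditions, with replicate II at 0.333 times (NonS) and 0.25 times (APC shRNA) replicate I. Of the summed score of the pair, CDK4 made up 92.8% ± 4.45 with NonS against 94.9% ± 4.05 with APC shRNA (SD, n = 2 each), and the groups overlapped. Without NonS replicate I that difference of 2.06 percentage points was -1.08, and without APC shRNA replicate II it was -0.801.

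MYC had lower values in APC shRNA than in NonS cells, but it was not called in this fit, which has no replicate block. Fits with such a block, given at the end, called it lower, but the labels do not say that a replicate number marks a shared run. MYC lies on chromosome 8 from 127735434 to 127741434 on the plus strand. With NonS it was at 114 (replicate I) and 89 (replicate II), and with APC shRNA at 85 (replicate I) and 65 (replicate II). The groups were separated by 4 units only (85 against 89), and replicate II was lower than replicate I under both shRNAs, by a factor of 0.781 and 0.765. The means were 101.5 ± 17.7 (SD, n = 2) and 75 ± 14.1 (SD, n = 2), a ratio of 0.739. The difference of MYC on the log2(value + 1) scale was -0.43 (standard error 0.21, 95% interval -1.10 to 0.23, adjusted p = 0.246 from limma). Its interval reaches from a marked fall to a small rise and lies wholly below that of CCND1. Both intervals are drawn in the plot of differences.

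**Figure D3:**
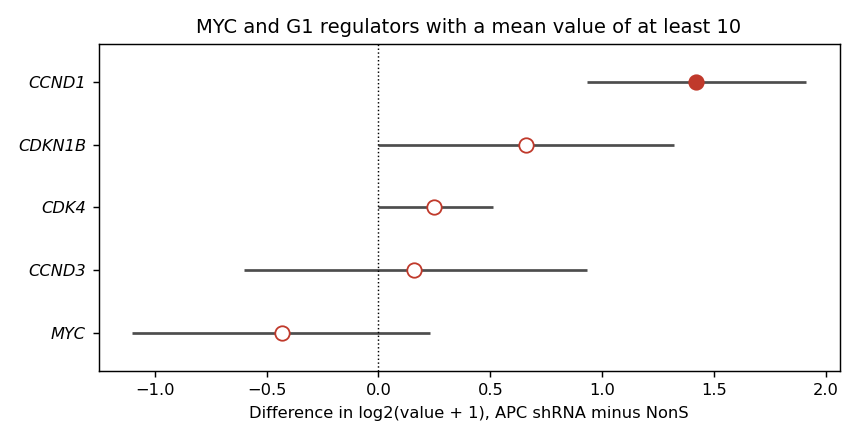
Difference in log2(value + 1), APC shRNA minus NonS, for the 5 genes that passed the filter (mean of 10 or more). Points are estimates from limma, lines their 95% intervals, and a filled point marks an adjusted p under 0.05. CCND1 at 1.42 is the one filled point, and MYC at -0.43 is the one estimate below 0.

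MAX, which MYC needs to bind DNA, lies on chromosome 14 from 65006174 to 65102695 on the minus strand. With NonS it stood at 8 and 7 and with APC shRNA at 9 and 11, under the filter with a mean of 8.75. The APC shRNA libraries were higher by 1 to 4 units, and rounding by 0.5 is 5.71% of its mean. Across all 4 libraries MYC stood far above MAX on the per-length score, with the lowest MYC value at 65 and the highest MAX value at 11.

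Of the 3 CDK inhibitors 1 passed the filter, CDKN1B. In the limma fit described above, which has no replicate block, 0 were called (0 also at an unadjusted p under 0.05). The unadjusted p of CDKN1B from limma was 0.0503, at the edge. Other fits without a replicate block put it on either side of 0.05, at 0.0167 with GC content correction and 0.0836 with every gene above 0. With the block it was 0.0987, and with the block and GC content correction 0.0115. That last fit, given at the end, called CDKN1B higher. CDKN1B, on chromosome 12 from 12715058 to 12722371, had 15 and 13 with NonS against 19 and 27 with APC shRNA. Both APC shRNA libraries were higher, and they differed more between themselves than the NonS libraries did. The difference of CDKN1B was 0.66 on the log2(value + 1) scale (standard error 0.21, 95% interval 0.00 to 1.32, adjusted p = 0.141 from limma), and it was not called. CDKN1A, on chromosome 6 from 36676460 to 36687339, was low, with 6 and 11 under NonS against 3 and 5 under APC shRNA and a ratio of means of 0.471. Its groups did not overlap, but by 1 unit only, and its mean of 6.25 was under the filter. CDKN2B, on chromosome 9 from 22002903 to 22009363 on the minus strand, was listed at 2 and 3 under either shRNA. At this level rounding by 0.5 is 20% of the mean.

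The other genes of these pathways were taken from 11 lists with 97 genes, of which 54 could be tested. Higher after APC silencing were 5 genes (9.26%) and lower 3 genes (5.56%), against 4.33% and 3.7% of all genes tested, and the median difference was -0.24 against 0.03. With median-of-ratios scaling, which divides each library by its median ratio to the average library, 6 were higher and 11 lower, against 5.77% and 5.67% of all genes tested under that scaling. The factor was 0.9905 for NonS replicate II and 1 for the other libraries. The values thus hardly changed, and the added calls show how near the threshold these genes lay. Of the 54 genes, 2 passed the filter through the APC shRNA libraries alone (CDKN1C and FOXO4) and 3 through the NonS libraries alone (CCNE1, CDC6 and CDKN3). CDKN1C and FOXO4 are among the 5 genes called higher, and CDC6 is among the 3 called lower. The shares called are thus raised in part by the filter and are no independent support for a change. The plot of list genes shows each of them.

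**Figure D4:**
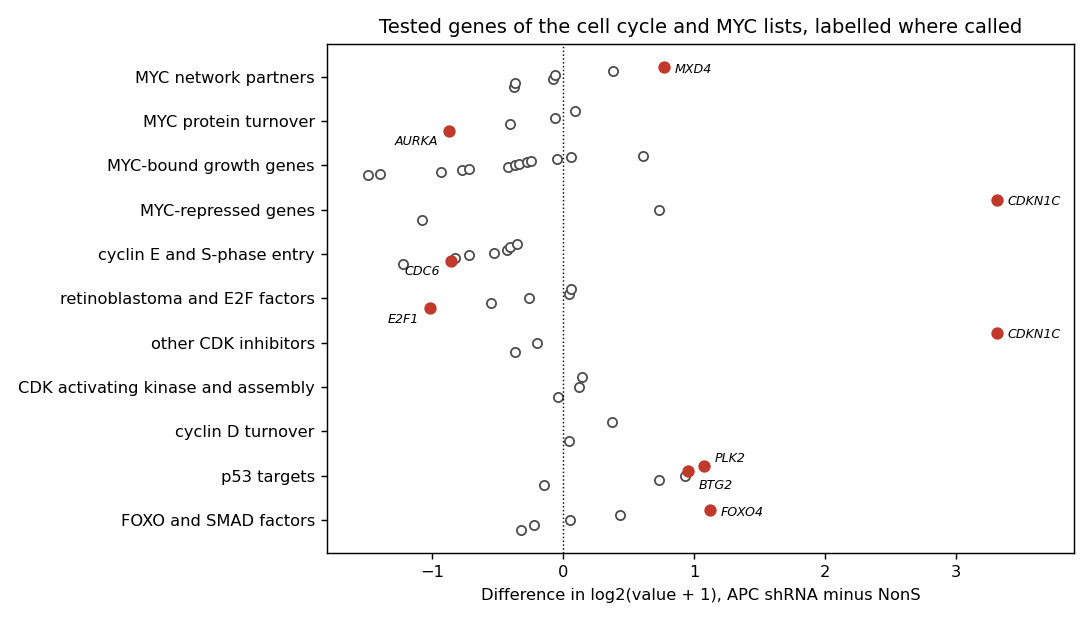
Difference in log2(value + 1), APC shRNA minus NonS, of each tested gene in 11 lists of cell cycle and MYC genes. Filled, labelled points have an adjusted p under 0.05 in limma and open points do not, and the height within a row only separates points. CDKN1C, SKP2 and GADD45A are each in 2 lists and so drawn in both. The 8 tested genes of cyclin E and S-phase entry all lie below 0, and CDC6 and CCNE1 among them passed the filter through the NonS libraries alone. CDKN1C at 3.31 lies farthest from 0 and passed through the APC shRNA libraries alone.

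Of the further CDK inhibitors, CDKN1C (p57) rose. Both NonS libraries had 4, against 42 and 56 with APC shRNA, a ratio of means of 12.2, with a difference of 3.31 on the log2(value + 1) scale (standard error 0.17, adjusted p = 0.0423 from limma). CDKN1C passed the filter through the APC shRNA libraries alone, where it was high, so its call is no independent support for a rise. After APC silencing its per-length score was thus above that of CDKN1A, CDKN1B and CDKN2B in both libraries. Of the other 4 inhibitors of the list, CDKN2A and CDKN3 were tested and not called, with differences of -0.20 and -0.37, and CDKN2C and CDKN2D were at 5 or less.

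Of the genes of cyclin E and S-phase entry, 8 of 10 were tested. CDC6, which loads the replicative helicase, fell from 19 and 17 to 10 and 9, with a difference of -0.86 (standard error 0.10, adjusted p = 0.0465 from limma). It passed the filter through the NonS libraries alone, as did CCNE1. The others were not called. Over all 10 genes of the list, tested or not, both APC shRNA libraries were lower than both NonS libraries in 9, against 19.1% of all genes with a value above 0. That background holds many low genes. Among the 8 tested genes it was so in 8, against 27.5% of all genes tested. CDC6 and CCNE1 are among these 8 and passed through their NonS values, so they add no support to this count. CCNA2, CDK2, CKS1B, SKP2, CDT1 and MCM2, with means of 10 or more in both groups, were also lower in both APC shRNA libraries. The differences of the tested genes lay between -1.22 (CCNA2) and -0.35 (CDK2). With median-of-ratios scaling 5 of the 8 were called lower, CDC6 among them, against 5.67% of all genes tested.

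Of the retinoblastoma and E2F factors 5 of 11 were tested. E2F1, the activating factor released by cyclin D kinases, fell from 33 and 30 to 16 and 14, with a difference of -1.02 (standard error 0.10, adjusted p = 0.0452 from limma). The other 4 had differences between -0.55 and 0.06 and were not called. Among the p53 targets, which were listed because CDKN1A is one of them, 2 of the 5 tested were called, both higher. The share called higher over all genes tested was 4.33%. PLK2, a kinase of the stress response, went from 65 and 73 to 146 in both APC shRNA libraries (adjusted p = 0.0423 from limma), and the antiproliferative factor BTG2 from 16 in both NonS libraries to 30 and 34 (adjusted p = 0.0441 from limma). The remaining 3 had differences between -0.15 and 0.93.

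The genes known to be bound and driven by MYC showed no call in limma on the values as deposited. Of 16 such growth genes 13 were tested, 0 were called, and at an unadjusted p under 0.05 there were 1 higher and 6 lower, against 19.8% and 15.8% of all genes tested. With median-of-ratios scaling 1 was called higher (APEX1) and 3 lower (NCL, RCC1 and CCNB1), against 5.77% and 5.67%. Both APC shRNA libraries lay below both NonS libraries in 9 of the 13 (background 27.5%) and above them in 1, and the median difference was -0.37 against 0.03. The ribosome biogenesis factors NCL and FBL were at 240 and 211 against 134 and 103, and at 437 and 373 against 331 and 276. Of the 6 tested MYC network partners 1 was called, MXD4, which competes with MYC for MAX and rose. Over all genes tested, 4.33% were called higher. NonS libraries had 14 and 15 and APC shRNA libraries 25 and 26, with a difference of 0.77 (standard error 0.06, adjusted p = 0.0423 from limma). The other 5 partners had differences between -0.38 and 0.38 and were not called. At an unadjusted p under 0.05 from limma there were 1 higher and 2 lower among the 6, against 19.8% and 15.8% of all genes tested. The 2 lower were MXD3, of the same family as MXD4 (26 and 25 against 20 and 19), and MLX (34 and 37 against 27 and 27). Among the 4 tested genes of MYC protein turnover, AURKA, a mitotic kinase that shields MYC family proteins, fell from 46 and 47 to 27 and 23, with a difference of -0.87 (adjusted p = 0.0465 from limma).

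Of the genes listed as repressed by MYC, CDKN1C is described above, and GADD45A (0.73) and NDRG1 (-1.08) were not called. FOXO4, a factor of the family that activates CDKN1B, rose from 7 and 8 to 16 and 19, with a difference of 1.12 (adjusted p = 0.0465 from limma). It too passed the filter through the APC shRNA libraries alone. The 4 other tested genes of its list (FOXO3, SMAD3, SP1 and KLF6) had differences between -0.32 and 0.43 and were not called. The kinase activating complex and the chaperones of CDK4 gave 0 calls among 3 tested genes in limma and cyclin D turnover 0 among 2, with 0 at an unadjusted p under 0.05 in either list. Their differences lay between -0.04 and 0.14 and between 0.04 and 0.37.

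Genes with the profile most like that of CCND1 or MYC were taken by the smallest distance between centred log2(value + 1) values over the 4 libraries. For CCND1 these were TPD52L1 (6, 6, 15 and 20, both NonS libraries first), CABLES1 (15, 16, 39 and 49) and TSPAN5 (5, 5, 14 and 16), at distances of 0.0818, 0.139 and 0.15. Only 4 of the 5375 other genes lay within 0.2 of CCND1. For MYC they were RRP9 (35, 28, 26 and 20), PICALM (49, 37, 36 and 28) and ATAD3B (31, 25, 23 and 18), at distances of 0.0332, 0.0425 and 0.0497, and 120 genes lay within 0.2. With 4 points such likeness is a description only.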

How the data were processed

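The authors filtered 50 bp single reads for quality, trimmed polyA tails, mapped them with TopHat2 to human assembly 38 (the submitters' processing notes name hg19), counted them per gene with htseq-count and GENCODE v29 and compared groups with DESeq2 1.4.1. The deposited table holds whole numbers, 1 for each gene in each library, treated here as a score of unstated scale, because replicates vary less than counts would. Their deposited table of fold changes and adjusted p-values was not used, and 0 columns of per-sample values were left out. Genes were matched by identifier to GENCODE v29 (19502 of 19729).

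Libraries were grouped by their titles. Conditions were compared on log2(value + 1) by limma 3.58.1 (R 4.3.3, moderation with a mean-variance trend). Genes averaging under 10 were left out, p-values were adjusted by Benjamini-Hochberg over the rest, and the prior degrees of freedom were 1.14. Shares were compared by exact permutation. The script was tested on simulated data. Genes named are the 10 genes, all called genes of the lists (up to 6 per list), and the 3 nearest profiles for MYC and CCND1. A gene named outside this rule was chosen after its values were seen. The genes, lists and tests were chosen with earlier results of these data known. Depth is unknown, so no counting intervals are given. Labels call the duplicates biological. Whether they came from separate transductions is not stated, and p-values measure the spread between these libraries.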

Additional observations from a re-analysis of the deposited data

How the results depend on the processing

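With 2 libraries per condition and low values rounded to whole numbers, calls near the threshold are fragile. Over the 5376 genes tested, 233 were called higher and 199 lower. These counts were 952 and 515 with every gene above 0, where 12799 genes were tested. They were 368 and 352 with robust moderation and 446 and 471 with GC content correction. Higher calls fell to 139 with at least 10 in every library, where 4682 genes were tested. Lower calls rose to 305, 349 and 369 with median-of-ratios, upper-quartile and equal-total scaling. Lower calls in the lists went from 3 to 11 with median-of-ratios scaling. The cause was not tested. CCND1, the 1 gene of the 10 called, kept its direction in every fit, and 0 of the 10 were called with every gene above 0 or with a mean of at least 8 (1, CCND1, at an unadjusted p under 0.05). Without any 1 library, limma called 0 genes at all (range 0 to 0, higher and lower, with 1119 to 1330 at an unadjusted p under 0.05), the 10 genes included, and the lone library is assumed to vary like the other group. The difference of CCND3 then ranged from -0.08 to 0.40 and that of MYC from -0.62 to -0.24. The share of CDK4 in CDK4 plus CDK6 differed by -1.08 to 5.21 percentage points and that of CCND1 by 13.2 to 21.1. With values times transcript length these were 7.05 and 12.4 percentage points.

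The labels give both conditions the same replicate numbers, without saying that a number marks a shared run. Across the 5376 genes the differences between replicates II and I correlated between conditions (0.724, a correlation across genes). A fit with the replicate block gave 523 higher and 500 lower calls, and 1273 and 1287 with GC content correction as well. With the block, 0 of the 10 genes were called higher and 1 lower, MYC (difference -0.43, adjusted p = 0.0479 from limma), while CCND1 had an adjusted p of 0.0521. With both, 2 were called higher, CCND1 (0.00253) and CDKN1B (0.0293), and 1 lower, MYC (-0.51, adjusted p = 0.00387).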

Other observations

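Several genes of the lists were under the filter on the mean and were picked out after their values were seen. MYCL, a MYC family member, had 3 and 2 with NonS against 10 and 12 with APC shRNA. TFDP2, a partner of E2F factors, had 3 in each NonS library against 8 and 10 with APC shRNA, while its paralog TFDP1 was at 113 and 107 against 71 and 79 (difference -0.55 on the log2(value + 1) scale, adjusted p = 0.0591 from limma). ZBTB17, the factor through which MYC represses CDK inhibitor genes, had 7 in each NonS library against 13 and 12 with APC shRNA. RB1 had 16 and 7 with NonS against 5 and 3 with APC shRNA, so that the NonS replicates differed from each other by more than NonS replicate II did from APC shRNA libraries. None of these were tested here, except TFDP1, while the paper lists MYCL among the genes upregulated in its own comparison.

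Among the growth genes bound by MYC, the iron uptake receptor TFRC (97 and 89 against 46 and 26) and the glycolytic enzyme LDHA (400 and 706 against 144 and 247) had differences of -1.40 and -1.49, with an adjusted p of 0.0935 and 0.13 from limma. In the other direction, the repair enzyme APEX1 was at 96 and 90 against 150 and 136 (difference 0.61, adjusted p = 0.0522 from limma).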
